A study of Mus musculus with 2 samples.

Results

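The genes described here are 10 genes of prolactin signalling and of serotonin synthesis and reception: Prlr, Stat5a, Stat5b, Cish, Socs2, Socs3, Tph1, Tph2, Htr2b and Htr1d. They were chosen by name, as the probes that carry these symbols in the authors' deposited table, which gave 15 probes among 55681 on the array and 10 genes among the 24288 with a symbol there. The signals come from one-colour arrays of isolated pancreatic islets from C57BL/6J mice that were 8 weeks old, 3 days after 60% of the pancreas had been removed (pancreatectomy) or after a sham operation without removal. Both groups are of the same strain, with no transgene, allele or drug named. Each group is 1 deposited sample that its submitters describe as 4 replicates, so 4 pancreatectomy arrays were set against 4 sham arrays. No label says whether the 4 came from separate animals, so a p-value here measures array-to-array spread alone, and that spread may be technical.

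Prolactin and the placental lactogens bind the prolactin receptor, whose partner kinase Jak2 then phosphorylates STAT5. Phosphorylated STAT5 enters the nucleus and switches on genes that include Cish and the Socs genes, which in turn damp the receptor. In the islets of pregnant rodents this signal is known for its part in the growth of beta cells, where it raises Tph1 and Tph2, the enzymes of the first step of serotonin synthesis, and serotonin then acts on beta cells through the receptor Htr2b in mid-pregnancy and Htr1d near its end. Removal of pancreas is another setting in which beta cells divide, and the comparison shows how the same genes stood in that setting.

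After pancreatectomy, Cish was 2.62-fold higher and Stat5b 1.61-fold lower, each with no overlap between the arrays of the groups, but neither passed the threshold over all features. None of the 9 members that could be tested passed an adjusted p of 0.05 in limma, with 0 higher and 0 lower, where 0.629% of all 30864 features passed, 0.544% higher and 0.0842% lower. At an unadjusted p under 0.05 there were 1 higher (Cish) and 1 lower (Stat5b), against 10.5% of features, 4.22% higher and 6.28% lower. The array values separated the groups without overlap for 1 member upward and 1 downward, against 8.28% of features, 2.99% upward and 5.29% downward. Prlr, Stat5a, Socs2 and Tph2 had changes near 0. Tph1, the pregnancy enzyme, was too dim to be tested on most arrays. Changes are pancreatectomy minus sham on the log2 scale, followed by their standard error (SE), and levels are normalized log2 signals, which are comparable between arrays for 1 probe but not between probes.

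**Figure D1:**
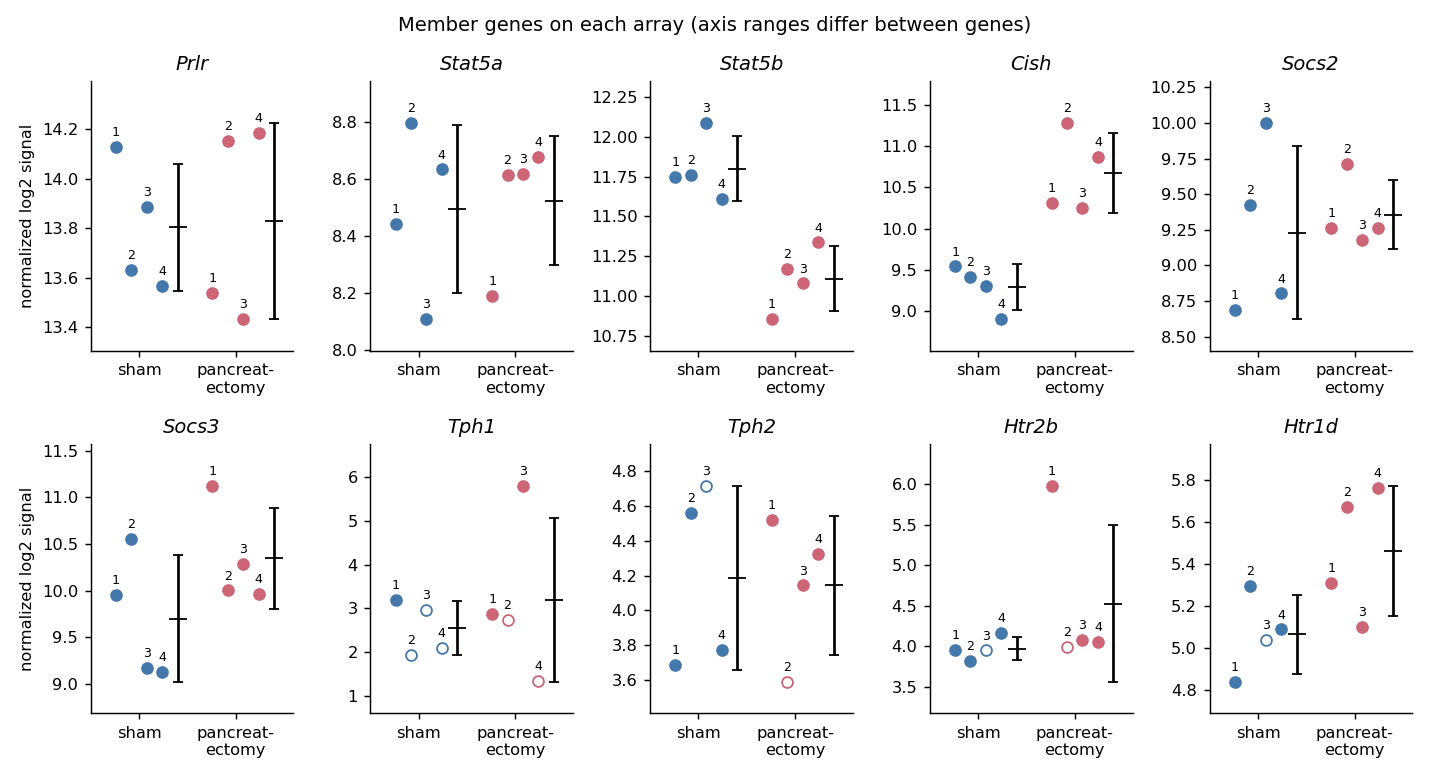
Each panel plots the normalized log2 signal of 1 gene on every array, sham in blue and pancreatectomy in red, with the replicate number above each point, an open point where the spot was not well above background, and the mean with its SD (4 arrays) as a black bar. Cish and Stat5b are the panels in which the groups do not overlap, while 1 array each stands apart for Htr2b (5.98) and Tph1 (5.79).

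Some arrays carried transcripts of tissues other than islets, and these arrays matter for several members. The islet markers were present on all arrays, with 14 of 14 measured, 0 past the threshold and a log2 summed signal of 21.06 to 22.21 on sham and 20.98 to 21.80 on pancreatectomy arrays. That sum is set by the brightest markers, such as Ins1. The median change of the 14 was -0.26, against -0.04 over all features. Nkx6-1 had -0.65, Slc2a2 -0.64, Ucn3 -0.59 and Pdx1 -0.51, and only Ppy (0.44) and G6pc2 (0.10) were positive. Liver markers (15 of 16 measured) summed to 16.96 to 17.64 on sham replicate 4 and pancreatectomy replicates 1 and 4, and to 13.49 to 13.77 on the other 5 arrays. On those 5 the sum was set mostly by Apoa2 and Ambp. Among them, pancreatectomy replicate 3 had Hp at 10.07 and Apoa1 at 9.71, against 4.19 to 4.58 and 1.46 to 3.01 on the rest. Alb was not raised there (4.34). The mean log2 difference of the liver markers from the sham mean was -0.22 on that array and -1.94 to -1.46 on the rest of the 5. Gut markers (9 of 11) were highest on pancreatectomy replicate 3, at 14.37 against 12.90 to 13.73, as were B-cell and plasma cell markers (7 of 9), at 13.98 against 9.15 to 10.05. On the other arrays the gut sum was set mostly by Vil1, at 12.77 to 13.62, and Vil1 read 12.86 on pancreatectomy replicate 3. Averaged over the 9 gut markers, the log2 difference from the sham mean was 2.82 on that array and -0.15 to 0.37 on the others. Fibroblast markers (8 of 8) summed to 16.91 and 15.74 on pancreatectomy replicates 1 and 3 and to 12.67 to 13.43 elsewhere. Sham replicate 3 was the dimmest array, with 48.1% of probes well above background against 59.1% to 71.4% on the others.

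The receptor gene Prlr differed between the groups by less than its spread. Its representing probe, on chromosome 15 at 10259066 to 10259125 (mm9), read 14.13, 13.63, 13.89 and 13.57 on the sham arrays, in the order of their replicate numbers, and 13.54, 14.15, 13.43 and 14.18 after pancreatectomy. The groups overlapped throughout, with the lowest and the highest array both after pancreatectomy. The change was 0.02 ± 0.23 (limma adjusted p = 0.976), with a 95% interval from -0.49 to 0.54. The other Prlr probe, upstream on the same strand at 10255629 to 10255688, gave 0.05 ± 0.18. Over the 8 arrays the probes had r = 0.907, a description of arrays that share the scaling. The sign of the Prlr change turned in 7 of 24 alternatives, which gave values from -0.10 to 0.27. Prlr is also a liver gene, and without the 3 arrays with liver transcripts its change was -0.09.

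STAT5 is encoded by a pair of neighbouring and closely related genes on chromosome 11, Stat5a and Stat5b. Stat5b read 11.75, 11.76, 12.09 and 11.61 on the sham arrays and 10.85, 11.17, 11.08 and 11.34 on the pancreatectomy arrays (probe at 100642045 to 100642104). Every pancreatectomy array lay below every sham array. The change was -0.69 ± 0.17 (limma adjusted p = 0.170, unadjusted p = 0.0026), with a 95% interval from -1.07 to -0.31. Its other probe, at 100642187 to 100642246, gave -0.53 ± 0.13 and also had no overlap, with 10.16 to 10.35 on sham and 9.62 to 9.89 on pancreatectomy arrays. The value was negative in all 24 alternatives, from -0.81 to -0.60, and passed the threshold in 1 of them, with array weights (-0.63, adjusted p = 0.0428, against 0.101 to 1.00 in the others that were tested). Without the 3 arrays with liver transcripts it was -0.74.

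Stat5a read 8.44, 8.80, 8.11 and 8.63 on sham and 8.19, 8.61, 8.62 and 8.68 on pancreatectomy arrays, with a change of 0.03 ± 0.19 (probe at 100746373 to 100746432). The groups overlapped, and the 95% interval ran from -0.41 to 0.47. The sign turned in 7 of 24 alternatives, among them slide row 1 (-0.22, against 0.28 in slide row 2). Within each array the Stat5b signal minus the Stat5a signal was 3.31, 2.96, 3.98 and 2.97 on sham and 2.66, 2.55, 2.46 and 2.66 on pancreatectomy arrays. The mean of this difference was -0.72 apart between the groups, with no overlap. The pair was picked after the values were seen, so this is a description that repeats the Stat5b values beside those of Stat5a. No p-value is given for it. In these bulk samples fewer cells of a type and less RNA per cell cannot be told apart.

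**Figure D2:**
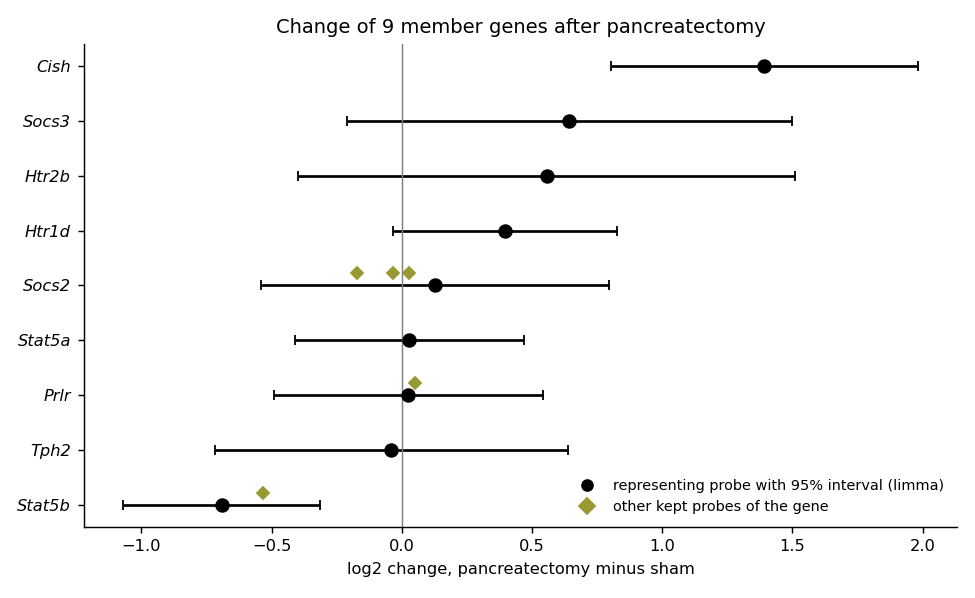
Log2 change (pancreatectomy minus sham) of the 9 members with a testable probe, as black points with 95% intervals from limma, and the changes of their other kept probes as diamonds. The intervals of Cish and Stat5b lie on 1 side of 0, and the others cross it.

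Cish encodes a SOCS-family protein that binds activated cytokine receptors and is among the best known STAT5 targets. Its promoter and that of Socs3 are shown because both genes answer to STAT proteins and both windows hold the palindromic STAT recognition motif TTCNNNGAA, printed in capitals. The sequences run 5′ to 3′ from 250 bases before the annotated gene start to 30 bases after it (RefSeq, GRCm38.p6), for Cish on the plus strand at chr9:107296409-107296688 and for Socs3 on the minus strand at chr11:117969337-117969616.
Cish: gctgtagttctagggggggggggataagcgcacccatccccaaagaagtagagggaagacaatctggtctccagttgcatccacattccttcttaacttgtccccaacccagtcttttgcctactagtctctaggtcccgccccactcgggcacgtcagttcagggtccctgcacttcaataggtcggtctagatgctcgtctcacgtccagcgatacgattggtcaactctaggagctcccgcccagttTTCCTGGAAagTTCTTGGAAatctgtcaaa
Socs3: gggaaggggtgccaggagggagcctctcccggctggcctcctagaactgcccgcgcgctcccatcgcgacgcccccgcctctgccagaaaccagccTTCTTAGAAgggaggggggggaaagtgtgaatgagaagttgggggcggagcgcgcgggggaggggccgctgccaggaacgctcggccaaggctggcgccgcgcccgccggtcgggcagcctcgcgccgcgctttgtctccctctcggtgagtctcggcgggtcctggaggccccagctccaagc
The Cish window holds 2 matches, TTCCTGGAA at bases 1 to 9 and TTCTTGGAA at bases 12 to 20 counted from the gene start, and the Socs3 window holds TTCTTAGAA from base -154 to base -146. The motif reads the same on both strands. Of 15 windows of 300 bases for 9 members, 3 held it, the third being TTCTAGGAA in 1 of the 3 Prlr windows. It occurred in 8.3% of all 32851 such windows, and 0.457% held 2 or more. A match is a string of letters and shows no binding.

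Cish had the largest change of the members. Its probe, on chromosome 9 at 107204196 to 107204255 (mm9), read 9.54, 9.41, 9.30 and 8.90 on the sham arrays and 10.32, 11.28, 10.25 and 10.87 after pancreatectomy. The lowest pancreatectomy array lay above the highest sham array. The change was 1.39 ± 0.26 (limma adjusted p = 0.0659, unadjusted p = 4.9e-04), with a 95% interval from 0.80 to 1.98, and it ranked 230 by p among the 30864 features. Within slide row 1 and slide row 2, each with 2 arrays of either group, the change was 1.32 and 1.46. It was positive in all 24 alternatives, from 1.19 to 1.86. It passed the threshold in 3 of them, with array weights (1.29, adjusted p = 0.0297), with an intensity trend (1.39, 0.0400) and with the filter that asks for signal on all 8 arrays (1.39, 0.0468), and its adjusted p in the others ran from 0.0574 to 1.00. Liver markers were high on sham replicate 4 and pancreatectomy replicates 1 and 4, where Cish read 8.90, 10.32 and 10.87. Without these 3 arrays the change was 1.35 (adjusted p = 0.808, with 0 of all features passing in so few arrays).

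**Figure D3:**
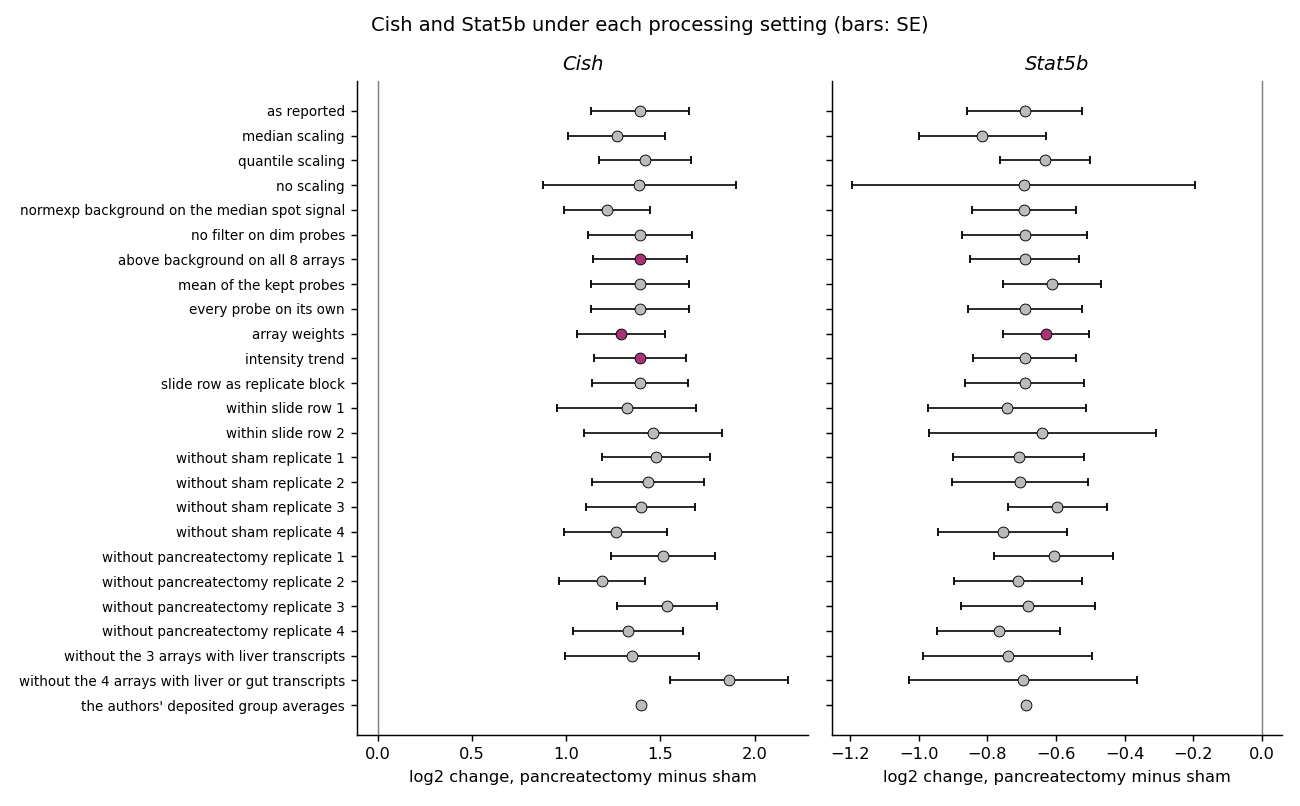
Log2 change of Cish (left) and Stat5b (right) with its SE under each processing setting, in purple where the adjusted p was under 0.05. All Cish values lie between 1.19 and 1.86 and all Stat5b values between -0.81 and -0.60.

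Socs2, a feedback inhibitor of growth hormone and prolactin receptors, had overlapping groups. Its representing probe (chromosome 10, 94875066 to 94875125) read 8.69, 9.42, 9.998 and 8.80 on sham and 9.26, 9.72, 9.18 and 9.26 on pancreatectomy arrays. The pancreatectomy values lay inside the sham range, and the highest array was sham replicate 3. The change was 0.13 ± 0.29 (adjusted p = 0.899), with a 95% interval from -0.54 to 0.80. Its 3 other probes gave -0.03, 0.03 and -0.17. The last of these was designed on another transcript, AK033206, at 94848005 to 94848064, and the 6 pairs of Socs2 probes had r from 0.794 to 0.980 over the 8 arrays. The Socs2 change turned negative in 4 of 24 alternatives, among them slide row 2 (-0.18, against 0.43 in slide row 1). Leaving out 1 array at a time gave -0.05 to 0.38, the highest without sham replicate 3, the dimmest array. Within each array the Cish signal minus the Socs2 signal ran from -0.70 to 0.85 on sham and from 1.05 to 1.61 on pancreatectomy arrays, a difference of 1.26 between the means. This pair too was picked after the values were seen and is a description, for which no p-value is given.

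Socs3, which blocks gp130 and leptin receptors and answers to STAT3 as well as STAT5, had a wider spread. It read 9.95, 10.55, 9.17 and 9.13 on sham and 11.12, 10.001, 10.29 and 9.97 on pancreatectomy arrays (chromosome 11, 117827480 to 117827539). Pancreatectomy replicate 1 was highest, and sham replicate 2 lay above the other 3 pancreatectomy arrays. The change was 0.64 ± 0.38 (adjusted p = 0.592). It was positive in all 24 alternatives, from 0.11 to 0.98, and passed the threshold in none. It was 0.31 in slide row 1 and 0.98 in slide row 2. Leaving out 1 array at a time gave 0.38 to 0.93, the highest without sham replicate 2 (adjusted p = 0.622). It was 0.38 without pancreatectomy replicate 1, which carried liver transcripts and the highest fibroblast markers, 0.25 without the 3 arrays with liver transcripts, and 0.11 on pancreatectomy replicate 2 alone against sham replicates 1 to 3. The Cish to Socs3 and Socs3 to Socs2 differences within an array changed by 0.75 and 0.52, with the groups overlapping.

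Serotonin synthesis starts with tryptophan hydroxylase, made from Tph1 in gut, mast cells and islets and from Tph2 in neurons. The Tph1 probe (chromosome 7, 53902553 to 53902612) was well above background on 3 of 8 arrays, sham replicate 1 and pancreatectomy replicates 1 and 3, and so was not kept for the test. It read 3.20, 1.94, 2.96 and 2.10 on sham and 2.88, 2.73, 5.79 and 1.35 on pancreatectomy arrays. A single array, pancreatectomy replicate 3, stood above the rest, and the other 3 lay within or below the sham range. The mean difference was 0.64 with that array and -0.23 without it. Pancreatectomy replicate 3 is the array with gut and B-cell transcripts, on which the gut gene Muc13 read 11.44 against 5.98 to 6.43 elsewhere and Fabp2 12.83 against 5.07 to 8.24. Not every gut marker was high there, as Vil1 (12.86) and Fabp6 (4.34) lay inside their ranges on the other arrays. Of 8 mast cell markers 3 were measured, with summed levels of 9.02 to 9.40 on sham and 9.09 to 9.79 on pancreatectomy arrays, while Cpa3, Mcpt4, Cma1, Fcer1a and Ms4a2 were not kept. The part of these cells in the Tph1 signal was not tested.

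Tph2 was dim as well, above background on 3 of 4 arrays of each group. It read 3.69, 4.56, 4.72 and 3.77 on sham and 4.52, 3.59, 4.14 and 4.33 on pancreatectomy arrays (chromosome 10, 114516684 to 114516743). The groups overlapped over nearly their whole range. The change was -0.04 ± 0.30 (adjusted p = 0.972), with a 95% interval from -0.72 to 0.64. Its sign turned in 4 of 23 alternatives, and it was -0.46 without the 3 arrays with liver transcripts.

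Of the receptors, Htr2b couples to Gq and is the one linked to beta-cell growth in pregnancy. It read 3.95, 3.82, 3.95 and 4.16 on sham and 5.98, 3.997, 4.08 and 4.05 on pancreatectomy arrays (chromosome 1, 87995712 to 87995771). Pancreatectomy replicate 1 stood alone, and the other 7 arrays lay between 3.82 and 4.16, near background. The change was 0.56 ± 0.42 (adjusted p = 0.673), and without that array it was 0.07. By slide row it was 1.10 in row 1, which holds that array, and 0.01 in row 2. Pancreatectomy replicate 1 also had the highest fibroblast markers (16.91), and replicate 3, next at 15.74, had Htr2b at 4.08. Of the macrophage genes, Lyz2 read 11.28 and 10.71 and Mrc1 8.46 and 8.17 on these arrays, against 5.81 to 7.004 and 4.56 to 5.76 on the others. The summed macrophage markers (10 of 10 measured) ran from 14.55 to 15.22 on sham and 14.44 to 15.02 on pancreatectomy arrays. That sum weighs most on the brightest genes, Itgam and Csf1r. Averaged over the 10 markers, the log2 difference from the sham mean was -0.40 to 0.23 on the other arrays. It was 1.71 and 1.35 on pancreatectomy replicates 1 and 3. Of the 4 of 6 platelet markers measured, Pf4 read 12.46 and 11.31 there against 5.84 to 6.97, and Gp9, Gp1bb and Gp5 read at most 6.67 on the same arrays. The part of these cells in the Htr2b signal was not tested.

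**Figure D4:**
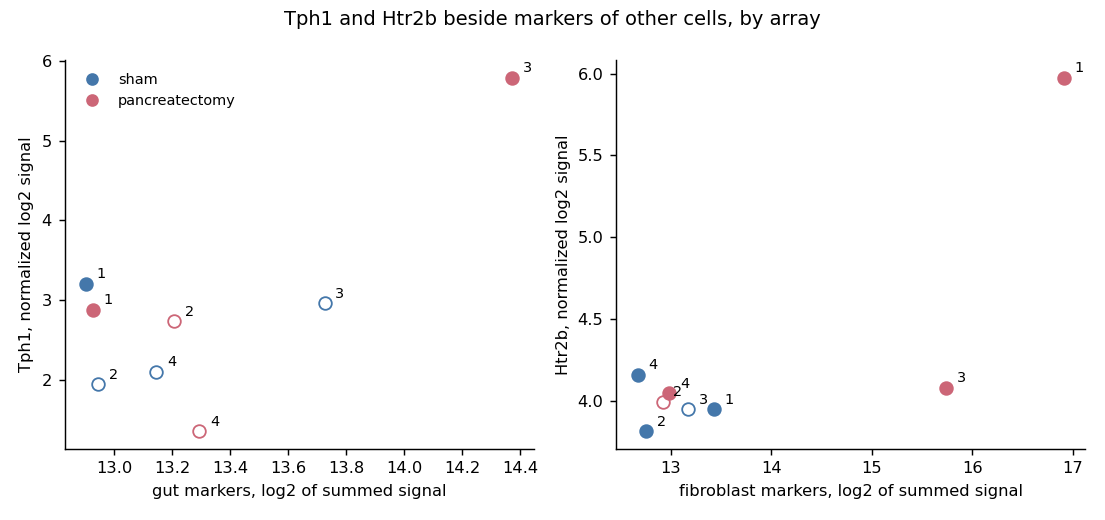
Normalized log2 signal of Tph1 against the log2 summed signal of gut markers (left), and of Htr2b against that of fibroblast markers (right), 1 point per array with its replicate number, blue for sham, red for pancreatectomy and open where the gene was not well above background. The high Tph1 value (5.79) is on the array with the highest gut markers and the high Htr2b value (5.98) on the array with the highest fibroblast markers. These pairs were chosen after the values were seen. On the arrays other than pancreatectomy replicate 3, the gut sum is set mostly by Vil1.

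Htr1d couples to Gi and is the receptor reported to rise in islets late in pregnancy. It read 4.84, 5.29, 5.04 and 5.09 on sham and 5.31, 5.67, 5.10 and 5.76 on pancreatectomy arrays (chromosome 4, 135999620 to 135999679). Pancreatectomy replicates 1, 2 and 4 lay above every sham array and replicate 3 among them. The change was 0.40 ± 0.19 (adjusted p = 0.514, unadjusted p = 0.0676). It stayed positive in all 23 alternatives that kept the probe, from 0.14 with normexp to 0.61.

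Over the 8 arrays, the members whose signals ran most alike were Cish and Htr1d (r = 0.789), and Cish and Stat5b ran most opposed (r = -0.698). The 8 arrays hold both groups, so every r here includes the difference between the groups. Cish and Stat5b each separated the groups without overlap in opposite directions. Their r does not show how they ran within a group. Outside the members, Lrrn3 and Prdm11 were among the 3 genes with the pattern most like Cish (r = 0.965 and 0.964). Stat5b was closest to Rad52, a recombination gene (r = 0.991), Gfra3 (0.989) and Pcf11 (0.986), and of these Gfra3, a receptor of the GDNF family, fell by 1.18 (adjusted p = 0.0341). Prlr was closest to Serf2, Cep135 and Mrpl34 (r = 0.960 to 0.970), and Htr2b to Cilp, Mn1 and Lrrc17 (r = 0.947 to 0.969). Socs3 was closest to Ubald2, the immediate-early gene Egr1 and Epb41l2 (r = 0.917 to 0.924), and Socs2 to Prss27, Elavl4 and Camta1 (r = 0.957 to 0.974). For Stat5a they were Olfr671, Veph1 and BC028777 (r = 0.956 to 0.985), for Tph2 Rnaseh2b, Gbp7 and Klra2 (r = 0.920 to 0.941), and for Htr1d LOC100044951, Me1 and Tbc1d15 (r = 0.965 to 0.982). These are the highest of many values over 8 arrays that share the scaling, given as a description.

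The other genes of the pathway were read from 7 lists with 121 genes, of which 100 were measured. Their median change was -0.04, against -0.04 over all features, and 4 rose and 1 fell, all 5 in the list of islet pregnancy genes. In the other 6 lists limma passed 0 of 79 genes, with 4 higher and 4 lower at an unadjusted p under 0.05. Over all features 4.22% were higher and 6.28% lower at that p. Of all 30864 features, 13922 had positive and 16942 negative changes, beside which the sign counts below are to be read.

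On the side of ligands, receptors and kinases, 17 of 19 genes were measured, with a median of -0.08. Jak2, the kinase of the prolactin receptor, had -0.45 ± 0.20 (adjusted p = 0.467), and Ghr, the growth hormone receptor, -0.08 ± 0.16. Epor, the erythropoietin receptor, which also signals through STAT5, had the smallest p in the list, with 0.54 ± 0.19 (adjusted p = 0.384) and 5.41 to 5.56 on sham against 5.79 to 6.59 on pancreatectomy arrays. Irs1, an insulin receptor substrate, had -0.59 ± 0.26. Of the 18 STATs and negative regulators, all measured, 13 had negative values and 0 passed. Their median was -0.18, and the smallest p belonged to Pias4, a SUMO ligase that restrains STATs, with -0.43 ± 0.13 (adjusted p = 0.293), followed by Socs5 (-0.46).

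Of 14 known STAT5 targets outside the members, all measured, 8 were positive, 6 negative and 0 passed, with a median of 0.09. Pim2, a survival kinase, had the largest change, -0.998 ± 0.20 (adjusted p = 0.0837), from 9.26 to 9.68 on sham to 7.98 to 8.77 on pancreatectomy arrays. Its relative Pim1 had 0.52 ± 0.19 (adjusted p = 0.404) and Id1, an inhibitor of basic helix-loop-helix factors, 0.45 ± 0.20. Bcl6, a transcriptional repressor, had -0.50 ± 0.33, Ccnd2, a D-type cyclin of beta cells, -0.26 ± 0.14, and Myc 0.71 ± 0.45. Pim2 was the 1 gene of the 14 without overlap between the groups (7.14%), against 8.28% of all features.

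Of 23 genes of serotonin handling listed, 16 were measured, 0 passed and the median was -0.09. Ddc, the decarboxylase that completes serotonin synthesis, had -0.42 ± 0.31, and Gch1, which makes the cofactor of tryptophan hydroxylase, -0.08 ± 0.22. Fev, a transcription factor of serotonin neurons and islet cells, had the smallest p, with -0.51 ± 0.16 (adjusted p = 0.307) and no overlap, from 7.96 to 8.29 on sham to 7.40 to 7.90 on pancreatectomy arrays. Maob, which breaks down amines, had -0.53 ± 0.25 and Pts, another cofactor enzyme, -0.37 ± 0.19. The transporter Slc6a4 was not among those measured. Of 12 other serotonin receptors, 2 were measured, Htr3a at 0.32 ± 0.25 and Htr6 at -0.15 ± 0.24, and the other 10 were not kept.

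In the list of islet pregnancy genes, 21 of 22 were measured, 4 rose and 1 fell. The genes that rose mark dividing cells: Birc5 by 3.98 ± 0.39, Mki67 by 3.91 ± 0.35, Ccnb1 by 3.73 ± 0.35 and Ccna2 by 3.26 ± 0.38 (adjusted p from 0.0073 to 0.0092). Foxm1, which drives such genes, had 1.84 ± 0.33 (adjusted p = 0.0558), and its other kept probe gave 1.11. Men1, the gene for menin, a brake on islet growth that falls in pregnancy, had 0.02 ± 0.19, and the inhibitors Cdkn1b and Cdkn2c had -0.41 ± 0.19 and 0.85 ± 0.30, neither past the threshold. Tnfrsf11b, which encodes osteoprotegerin, a prolactin target in islets, had -0.32 ± 0.22.

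**Figure D5:**
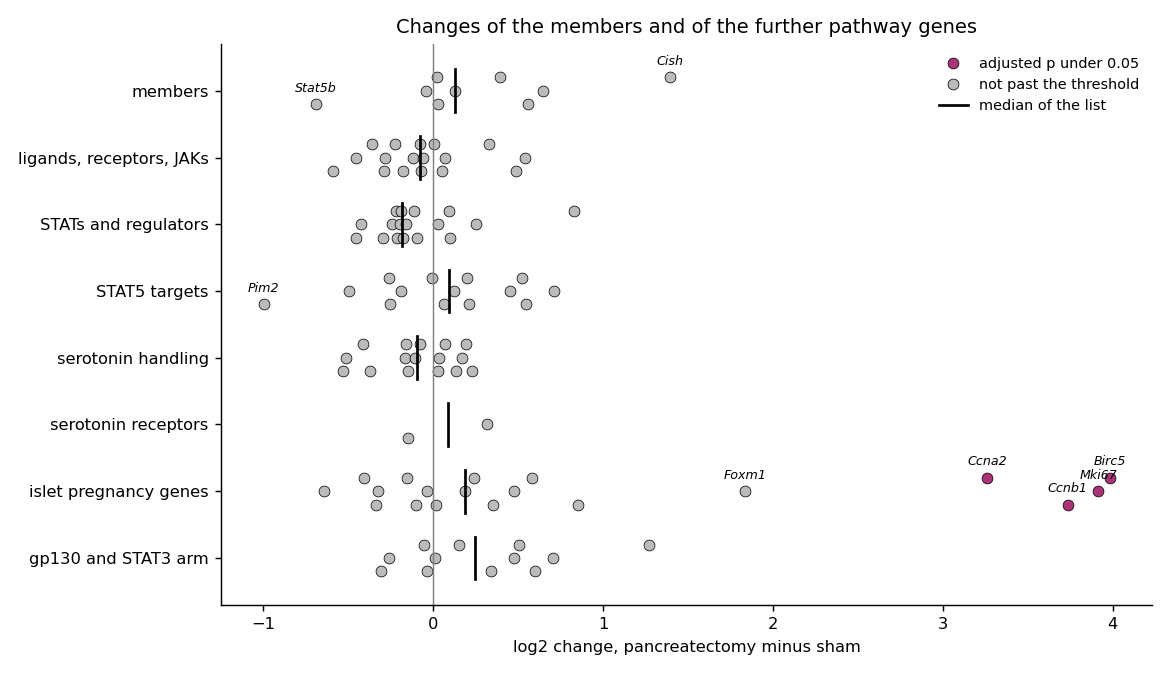
Log2 change (pancreatectomy minus sham) of each measured gene, by list, with the list median as a black bar and genes past an adjusted p of 0.05 in purple. The 4 purple genes, all of cell division, lie between 3.26 and 3.98 in the list of islet pregnancy genes. The medians are over all measured genes, of which 3 are not drawn.

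The gp130 and STAT3 arm shares Socs3 with the STAT5 side. Of its 13 genes 12 were measured, 8 were positive and 0 passed, with a median of 0.25. Il11, a cytokine of that family, had 0.50 ± 0.21 (adjusted p = 0.444), Fos, an immediate-early gene, 1.27 ± 0.60 and Lif 0.71 ± 0.38. Fos and Socs3 shared their highest array, pancreatectomy replicate 1, and their lowest, sham replicate 4.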

How the data were processed

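Each array file holds the processed spot intensity on a linear scale, with array levels that differ (75th percentiles from 178 to 655), from Feature Extraction, whose version the file headers give as 10.7.3.1 and the submitters' processing notes as 9.1; the intensities are as deposited. The authors' deposited table holds 1 average per group, as intensity and as log2 after a 75th percentile shift in GeneSpring GX 12.5, per the file headers. It served for symbols and for a check of differences (r = 0.985 over 37491 kept probes). Flags for background and outliers are other values, used as deposited.

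Outlier spots were left out and spots of 1 probe averaged. Signals were taken as log2 minus each array's 75th percentile, with the mean percentile added back. Probes well above background on at least 4 of 8 arrays, with at least 3 values per group, were kept. Each gene took its brightest kept probe, and probes without a symbol stood alone. Symbols were updated by Entrez ID with GRCm38.p6 names. The test was limma 3.58.1 (R 4.3.3), adjusted by Benjamini-Hochberg over 30864 features, at a threshold of 0.05. Precision is limited by the number of arrays. The fit was tested on simulated data. All arrays lie on 1 slide, with rows and columns taken from the array files; the labels list 1 sham position more than once, and the fourth sham array was placed in row 2 from its file. On that slide, sham and pancreatectomy arrays fill different columns, so slide column and surgery cannot be told apart. Promoter sequences are RefSeq windows matched by symbol. Exon and UTR annotation on mm9 was not used here.

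Named are all members, in the lists every gene past the threshold or otherwise the 3 with the smallest p, and for each member the 3 genes with the highest r. Other list genes were named after their values were seen. The members and lists were chosen with earlier results of these data known. Alternatives in scaling, background, filter, probe choice, weights, slide row and arrays used are given at the end. A few genes that these rules name are not reported here, although the counts and medians include them.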

Additional observations from a re-analysis of the deposited data

Results flagged for a closer look

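Among 28 sets of 4 arrays (14 kept member probes in each group), 3 had 1 array far from the other 3, where chance flags about 1 set in 20. Htr2b read 5.98 on pancreatectomy replicate 1, as given above. The representing Socs2 probe read 9.72 on pancreatectomy replicate 2, where the other 3 pancreatectomy arrays lay between 9.18 and 9.26, and sham replicate 3 read 9.998. For Stat5a, pancreatectomy replicate 1 lay at 8.19 and its group's other arrays at 8.61 to 8.68, and a sham array was lower still at 8.11.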

How the results depend on the processing

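Of 24 alternatives, 1 of them the authors' averages, none turned the sign of Cish, Stat5b, Socs3, Htr2b or Htr1d where it kept the probe, and 7 turned that of Prlr, 4 of Socs2, 4 of Tph2 and 7 of Stat5a. The count of members past the threshold rose from 0 to 1 higher (Cish) with array weights, an intensity trend or the filter on all 8 arrays, and from 0 to 1 lower (Stat5b) with array weights. Of the further pathway genes, 4 higher and 1 lower as reported, limma passed 0 higher and 0 lower within slide row 1, within slide row 2, without the 3 arrays with liver transcripts and without the 4 arrays with liver or gut transcripts, and 0 lower with no scaling. In those 4 smaller sets 0 of all features passed, while 2017, 895, 1349 and 1644 had an unadjusted p below 0.05. The 4 higher genes kept their direction there, with Mki67 at 4.28, 3.55, 3.57 and 3.48 and Birc5 at 4.001, 3.97, 3.52 and 3.26. With array weights 2 were lower. The slide row as replicate block left 0 members and 4 and 1 pathway genes past the threshold, with adjusted p = 0.0928 for Cish. Median scaling put the median of all features at -0.16 against -0.04. In the set of 4 arrays the lone pancreatectomy array was assumed to vary like the sham arrays. Normexp used the median spot signal, chosen after the files were seen, since the planned fit on the mean spot signal was not run. Tph1, Tph2, Htr2b and Htr1d lay near background, which limits what their values show.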
